A study of Capra hircus with 9 samples.

Results

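Glycolytic enzymes were followed in polyadenylated RNA of the goat uterus around implantation. The set was given as 10 enzymes: the hexokinases HK1 and HK2, the isomerase GPI, the phosphofructokinases PFKL and PFKP, the aldolase ALDOA, the kinase PGK1, the enolases ENO1 and ENO2, and the lactate dehydrogenase LDHA. A row of the deposited count table belonged to the set when its gene name was identical to one of these. This found 9 of the 25671 gene rows. LDHA had no row of that name, and the row named LDH-A, which another column of the table gives as LDHA, was taken as the 10th. All 10 passed the filter on low counts. The samples came from Liaoning Cashmere goats (Capra hircus), a fibre breed, and were labelled 6 day, 16 day or 19 day peri-implantation, with 3 libraries each. No treatment and no other group is given. The starting event of the day count is not stated, the design text words the days as ages, and whether the libraries of a day are separate animals is not stated either. The p-values below therefore describe the spread among these libraries, some of which may be technical. The tissue field reads uterus, the series title speaks of endometrial epithelium and the treatment field names testis.

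Glycolysis splits glucose into pyruvate in the cytosol and yields a little ATP without oxygen. Hexokinase traps glucose as its phosphate, phosphofructokinase is the main control point, phosphoglycerate kinase and pyruvate kinase yield the ATP, and lactate dehydrogenase converts pyruvate to lactate and restores NAD. Most steps have several isozymes, coded by separate genes that differ in tissue and in regulation, and many of these genes are known targets of hypoxia-inducible factors. In ruminants the uterine lining also passes glucose and fructose to the conceptus, which elongates before it attaches.

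The libraries held 8712751 to 11074693 counts. Day 19 replicate 1 stood apart from the other day 19 libraries: across genes its Spearman correlation with them was 0.952 and 0.953, against 0.979 between replicates 2 and 3, and genes are not independent replicates. A chi-square of the counts of each pair of libraries, per degree of freedom, is lower for more alike pairs. For day 19 replicate 1 it was 81.5, 48.2 and 84.1 with day 16 replicates 1 to 3. With day 19 replicates 2 and 3 it was 140 and 124. By this measure the library was nearer to day 16 than to the rest of its own day, and the cause was not tested. Ribosomal protein genes held 2.42% of its counts, against 6.61% and 5.64% in replicates 2 and 3 and 3.64% to 4.34% in the 6 libraries of days 6 and 16. Genes of the mitochondrial genome held 2.91% to 3.27% of the counts on day 6, 1.94% to 2.11% on day 16, and 0.639%, 1.54% and 1.34% in day 19 replicates 1 to 3, and the part of this in the results was not tested. Results are therefore also given without that library, which leaves day 19 with replicates 2 and 3 only. The library was singled out from these same data. Without it far more genes passed, for day 19 against day 16 7331 instead of 193. The 10 enzymes held 0.161% to 0.192% of all counts at day 6, against 0.171% to 0.222% on day 16, and 0.243% to 0.308% on day 19.

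The samples carried the defining genes of several uterine cell types. Levels are CPM, the count of a gene per 1000000 counts of its library, after TMM scaling (trimmed mean of M-values). Summed over 8 of 10 listed epithelial markers in the table, the day 6 libraries held 587 to 622 CPM, those of day 16 held 1234 to 1278 and those of day 19 held 893 to 1327. The sum of the 10 stromal fibroblast markers was 30290 to 33404 CPM on day 6, between 18612 and 23046 on day 16, and between 19974 and 29738 on day 19. The 10 smooth muscle markers stood at 9414 CPM in day 6 replicate 1 and at 27638 and 34521 in the other day 6 libraries, with 21186 to 44238 at the later days. The 7 macrophage markers went from 284 to 635 CPM at day 6, over 482 to 710 at day 16, to 851 to 1321 at day 19, and of the 7, 5 rose and 1 fell from day 6 to day 19, when 12.7% of all genes were called higher and 10.2% lower. By the same test 3 of the 8 epithelial markers rose and 1 fell, 1 of the 10 smooth muscle markers rose, 1 of the 10 stromal fibroblast markers rose and 1 fell, and no endothelial marker passed. The 7 endothelial markers ranged from 677 to 1379 CPM over all libraries. Of 7 germ cell markers of the testis in the table, SYCP3, TNP1 and ACRV1 had 0 counts in every library and the list never exceeded 2.25 CPM, and 5 trophoblast markers in the table summed to at most 9.71 CPM. Of the 4 listed erythrocyte genes in the table HBM and ALAS2 were at 0 and the list reached at most 1.27 CPM. The part of these cell types in the changes below was not tested, and in bulk RNA fewer cells of a type and less RNA per cell cannot be told apart.

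From day 6 to day 16 the enzymes moved apart. PGK1 rose 2.22-fold, HK2 fell by 1.64 and LDH-A by 1.10 on the log2 scale, and the other 7 did not pass (edgeR quasi-likelihood test, Benjamini-Hochberg adjusted p under 0.05 over 16098 genes). Of all genes tested 5.12% were called higher and 3.74% lower in this comparison, against 1 and 2 of the 10 enzymes. The 3 libraries of each day did not overlap for 3 enzymes that were higher at day 16 (PFKP, ALDOA and PGK1) and for 2 that were lower (HK2 and LDH-A); the same held for 19.9% and 18.8% of all genes. The median log2 fold change was 0.11 over the enzymes and -0.00 over all genes. DESeq2 called the same 3 enzymes, and 12.3% of the genes it tested. Without day 19 replicate 1, which enters through the shared estimate of the spread, PFKP and ALDOA also rose, beside 10.7% of all genes called higher and 9.67% lower.

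From day 16 to day 19 ENO2 rose 3.86-fold and was the 1 enzyme that passed in edgeR, where 0.516% of all genes were called higher and 0.683% lower. DESeq2 called ENO2 and ENO1, with 10.4% of genes called. The estimates of all 10 enzymes were above 0, with a median log2 fold change of 0.39 against 0.01 over all genes, but most lay within the spread of the libraries. PGK1, ENO1 and ENO2 did not overlap between these days and were higher at day 19, which 11.9% of genes were; 12% of genes and none of the enzymes were lower without overlap. Without day 19 replicate 1, GPI, PFKP, ENO1, ENO2 and LDH-A rose, at a background of 21.6% higher and 23.1% lower.

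Between day 6 and day 19, 4 enzymes rose (PFKP, PGK1, ENO1 and ENO2) and 2 fell (HK2 and LDH-A), or 4 and 1 of the 9 whose names were identical. In this comparison 12.7% of all genes were called higher and 10.2% lower. The same 6 were called by DESeq2, which called 26.9% of its genes, and the same 6 did not overlap between the days, as 19.6% of genes on the higher and 18.9% on the lower side. The median log2 fold change was 0.55 against 0.02 over all genes. Without day 19 replicate 1, GPI and ALDOA joined the 4 that rose, and 27.2% of genes were higher and 27% lower. The 3 comparisons share libraries, so they are not independent of each other.

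**Figure D1:**
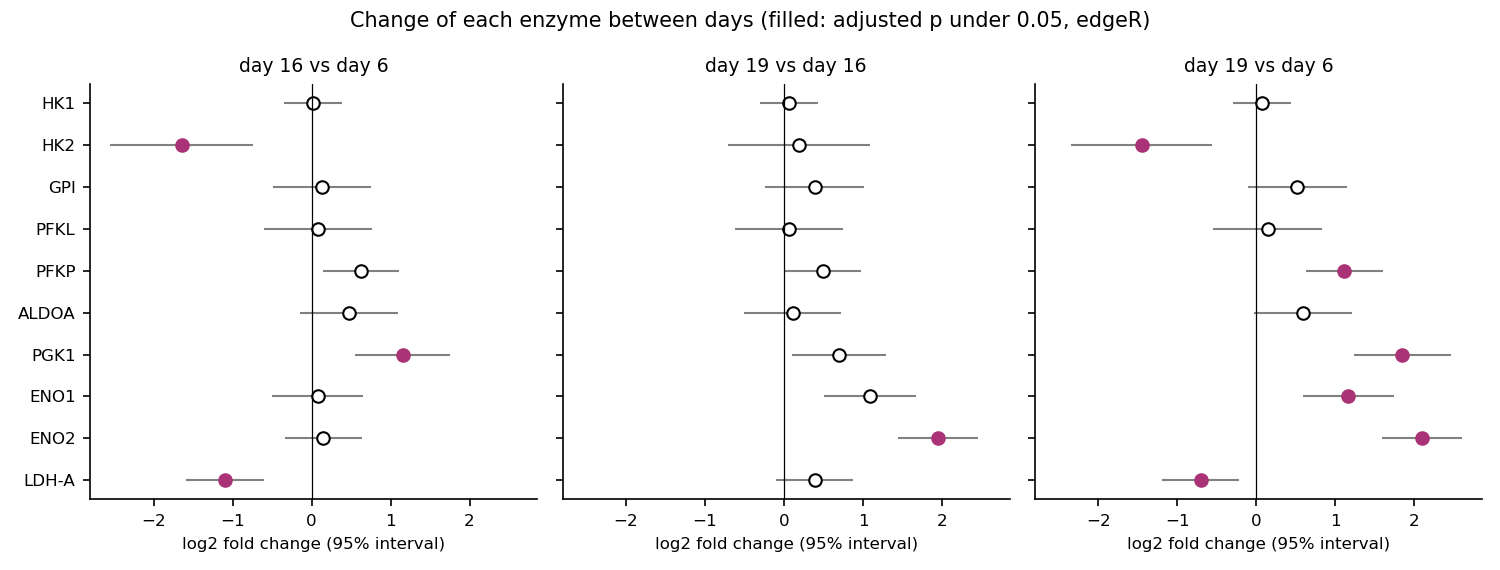
Log2 fold change of each of the 10 enzymes in the 3 comparisons, later day minus earlier day, from the edgeR fit to all 9 libraries; bars are 95% intervals and filled points passed at an adjusted p under 0.05. HK2 and LDH-A lie left of 0 at both later days against day 6, and ENO2 has the highest estimate in both comparisons with day 19.

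Hexokinase catalyses the first step. HK1 (KEGG gene identifier 102190759), the widely expressed hexokinase, had 161, 150 and 130 CPM in the day 6 libraries, 135, 163 and 149 at day 16 and 141, 168 and 156 at day 19. These values overlapped throughout. The log2 difference of day 16 from day 6 was 0.02, with a 95% interval from -0.35 to 0.38, and that of day 19 from day 6 was 0.08, from -0.29 to 0.44. HK1 thus passed in no comparison, and the intervals do not reach a 2-fold change in either direction.

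HK2 (102168356), the insulin- and hypoxia-responsive hexokinase, went the other way from most of the set. It stood at 27.8, 15.4 and 22.2 CPM at day 6, at 7.06, 9.57 and 4.42 at day 16 and at 12.1, 6.79 and 4.97 at day 19. Every day 6 library was above every later library. HK2 fell by 1.64 from day 6 to day 16 (SE 0.40, adjusted p = 0.0339, edgeR) and by 1.45 from day 6 to day 19 (SE 0.40, adjusted p = 0.0285, edgeR), both on the log2 scale. The day 16 call ended on leaving out day 6 replicate 1 or 3 or any 1 day 16 library (adjusted p = 0.0543 to 0.124, edgeR). The day 19 call ended on leaving out day 6 replicate 1 or 3 or day 19 replicate 2 or 3 (adjusted p = 0.0797 to 0.102, edgeR) and in a fit restricted to those days (0.0512). Beside this, the highest HK2 value fell in day 6 replicate 1, the library with 9414 CPM of smooth muscle markers, and the part of that in the result was not tested; without that library the log2 fold change to day 16 was -1.42.

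GPI (102189150), which converts glucose 6-phosphate to fructose 6-phosphate, had 193, 235 and 191 CPM at day 6, 257, 206 and 215 at day 16 and 171, 343 and 372 at day 19. Replicates 2 and 3 of day 19 were above all libraries of the earlier days, and replicate 1 was below them all. Over all libraries GPI passed in no comparison (adjusted p = 0.198 for day 19 against day 6, edgeR). With that library left out, GPI rose 1.75-fold from day 6 (adjusted p = 0.00145, edgeR) and 1.60-fold from day 16 (adjusted p = 0.00503, edgeR).

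Phosphofructokinase commits the sugar to breakdown. PFKL (102187810), the liver type, held 98.3, 67.7 and 77.5 CPM at day 6, 89.5, 102 and 65.7 at day 16 and 52.1, 122 and 94.6 at day 19. Its days overlapped and it passed in no comparison, also not without day 19 replicate 1 (adjusted p = 0.828, 0.218 and 0.124 for day 16 against 6, day 19 against 16 and day 19 against 6, edgeR).

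PFKP (102190144), the platelet type, stood at 47.6, 33.2 and 35.7 CPM at day 6, at 65.6, 62.1 and 51.7 at day 16 and at 64.5, 93.7 and 94.3 at day 19. Day 6 lay below both later days without overlap, while days 16 and 19 overlapped through day 19 replicate 1. PFKP rose 2.17-fold from day 6 to day 19 (log2 fold change 1.12, SE 0.22, adjusted p = 0.00659, edgeR), and this call held without each single library (adjusted p up to 0.0370). Its log2 difference of 0.62 at day 16 missed the threshold over all libraries (adjusted p = 0.117, edgeR). When that library was left out PFKP passed at day 16 (0.0211) and from day 16 to day 19 (0.0108), and a fit restricted to days 6 and 16 also called it (0.0334).

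ALDOA (102187016), the aldolase that cleaves the sugar into 3-carbon pieces, had 478, 469 and 383 CPM at day 6 and 631, 683 and 537 at day 16. At day 19 it was at 411, 740 and 846 CPM. The day 16 libraries were all above those of day 6, and day 19 replicate 1 lay within the day 6 range. ALDOA passed in no comparison over all libraries (adjusted p = 0.391 at day 16 and 0.150 at day 19 against day 6, edgeR). With that library left out, ALDOA rose 1.39-fold to day 16 (adjusted p = 0.0484, edgeR) and 1.80-fold to day 19 (adjusted p = 0.00183, edgeR).

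PGK1 (102185725), the first enzyme of the pathway to yield ATP, had a higher mean at each later day, though the step from day 16 to day 19 did not pass. Its libraries stood at 102, 88.6 and 91.4 CPM at day 6, at 233, 269 and 124 at day 16 and at 367, 350 and 297 at day 19. No library of a day overlapped with another day, and day 16 replicate 3 was the lowest of its day. The level rose 2.22-fold from day 6 to day 16 (log2 fold change 1.15, SE 0.27, adjusted p = 0.0272, edgeR) and 3.60-fold to day 19 (log2 fold change 1.85, SE 0.27, adjusted p = 0.00177, edgeR). The day 19 call held without each single library (adjusted p up to 0.0130). The day 16 call ended on leaving out any 1 day 6 library or day 16 replicate 1 or 2 (adjusted p = 0.0772 to 0.113, edgeR). From day 16 to day 19 the difference of 0.70 did not pass (adjusted p = 0.157, edgeR).

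Enolase makes phosphoenolpyruvate. ENO1 (102175881), the common alpha enolase, held 374, 390 and 386 CPM at day 6, 419, 502 and 291 at day 16 and 640, 927 and 1014 at day 19. Days 6 and 16 overlapped, and every day 19 library was above them. ENO1 rose 2.24-fold from day 6 to day 19 (log2 fold change 1.17, SE 0.26, adjusted p = 0.0119, edgeR), a call that ended on leaving out day 6 replicate 3 (0.0522). Its log2 difference of 1.09 from day 16 missed the threshold in edgeR (adjusted p = 0.0666) and passed in DESeq2 (adjusted p = 0.00196); without day 19 replicate 1 it passed in edgeR at 0.000874.

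ENO2 (102190860), the gamma enolase best known from neurons, gave the largest fold change of the 10 enzymes. It had 145, 99.2 and 124 CPM at day 6, 138, 157 and 112 at day 16 and 619, 464 and 490 at day 19. Days 6 and 16 overlapped, and the lowest day 19 library was above the highest earlier library. Between day 6 and day 16 the log2 difference was 0.15, with a 95% interval from -0.34 to 0.63. ENO2 rose 4.27-fold from day 6 to day 19 (log2 fold change 2.09, SE 0.23, adjusted p = 0.000387, edgeR), and this held without each single library (adjusted p up to 0.00414). It rose 3.86-fold from day 16 (log2 fold change 1.95, SE 0.22, adjusted p = 0.0215, edgeR). That call ended on leaving out day 6 replicate 3, any 1 day 16 library or day 19 replicate 3 (adjusted p = 0.0588 to 0.0974, edgeR), in a fit blocked on replicate number (0.0531) and in one restricted to days 16 and 19 (0.120), while the fold change stayed between 1.81 and 2.07 on the log2 scale. Day 19 replicate 1 was the highest of its day; without it ENO2 rose 3.91-fold from day 6 and 3.54-fold from day 16.

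LDH-A (100860870), the muscle-type subunit that favours the step from pyruvate to lactate, had 114, 109 and 99.0 CPM at day 6. It stood at 53.9, 51.9 and 45.0 CPM at day 16 and at 49.5, 60.0 and 88.2 at day 19. All later libraries were below day 6. LDH-A fell by 1.10 on the log2 scale to day 16 (SE 0.22, adjusted p = 0.0134, edgeR) and by 0.71 to day 19 (SE 0.22, adjusted p = 0.0429, edgeR). The first call ended on leaving out day 6 replicate 1 or 2 or day 16 replicate 2 or 3 (adjusted p = 0.0517 to 0.0563, edgeR). The second ended on leaving out any 1 library of days 6 and 16 or day 19 replicate 2 (adjusted p = 0.0572 to 0.136, edgeR), in a fit blocked on replicate number (0.0800) and in one restricted to days 6 and 19 (0.0962). Against day 16 the day 19 level did not pass over all libraries (log2 difference 0.39, adjusted p = 0.281, edgeR) and rose 1.49-fold without day 19 replicate 1 (adjusted p = 0.0202, edgeR).

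**Figure D2:**
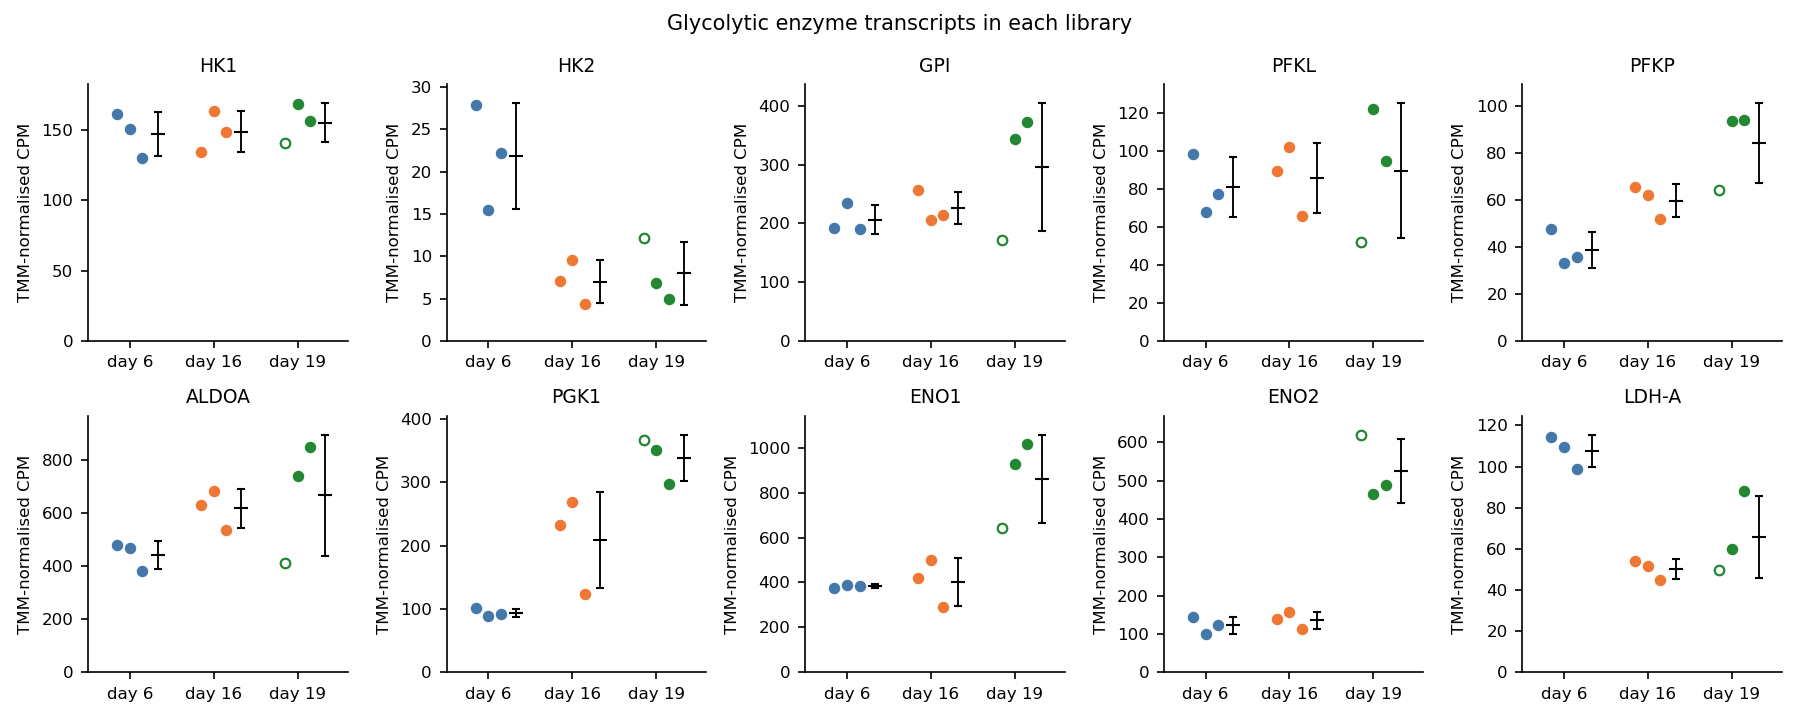
TMM-normalised CPM of the 10 enzymes in each of the 9 libraries; points are libraries in the order of their replicate number, open circles mark day 19 replicate 1, and black bars are the mean and SD of 3 libraries. PGK1 forms 3 separate groups, ENO2 stays near its day 6 level until day 16, and the open circle is below the other day 19 libraries for HK1, GPI, PFKL, PFKP, ALDOA, ENO1 and LDH-A.

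Day 19 replicate 1 did not differ from replicates 2 and 3 in the same direction for all enzymes. It was below both for 7 of the 10, at 47.9% of their mean for GPI, 48.0% for PFKL, 51.8% for ALDOA, 66.0% for ENO1, 66.8% for LDH-A, 68.6% for PFKP and 86.8% for HK1. It was above both for HK2 (206%), ENO2 (130%) and PGK1 (113%). How many of all genes lay outside replicates 2 and 3 in this library was not counted. These numbers are therefore not read as a trait of the enzymes. The ribosomal protein share of this library, given above, was also low; the part of library make-up in these ratios was not tested.

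The make-up of isozymes was compared as a share of the counts of their step. Longer transcripts give more counts and no transcript lengths were used, so a share is read across days and not as a share of molecules. With 3 libraries against 3 a two-sided exact permutation test cannot go below p = 0.1, and 21 such comparisons were made, so none can pass. HK2 held 14.3%, 9.12% and 14.2% of the hexokinase counts (HK1, HK2, HK3 and HKDC1) at day 6, 2.49% to 4.81% on day 16, and 2.79% to 6.95% on day 19. HKDC1, a hexokinase-related enzyme of epithelia, held at most 0.186% at day 6, 8.70% to 13.5% on day 16, and 3.92% to 7.35% on day 19. For both genes the day 6 libraries were separate from the later ones (exact permutation test, p = 0.1 each, adjusted 0.124).

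PFKP held 25.5%, 20.0% and 20.3% of the counts of PFKL, PFKP and PFKM at day 6, 31.4% to 37.0% on day 16, and 39.3% to 47.6% on day 19. The share of PFKM, the muscle type, was 21.9%, 39.2% and 35.5% at day 6, 14.8% to 16.9% on day 16, and 9.42% to 14.0% on day 19. Shares of all 3 days were separate for both genes, PFKP upward and PFKM downward (exact permutation test, p = 0.1 each, adjusted 0.124). The low day 6 share of PFKM was that of replicate 1, the library low in smooth muscle markers, and the part of muscle in it was not tested.

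ENO2 held 19.8% to 27.1% of the counts of ENO1, ENO2 and ENO3 at day 6 and 23.2% to 26.7% at day 16. At day 19 it held 48.7% in replicate 1 and 32.9% and 32.2% in replicates 2 and 3, all above the earlier days (exact permutation test, p = 0.1, adjusted 0.124). LDH-A held 33.4% to 38.9% of the counts of LDH-A and LDHB, the heart-type subunit, at day 6, 22.7% to 26.4% on day 16, and 16.5% to 26.3% on day 19. The day 6 shares were separate from both later days (exact permutation test, p = 0.1 each, adjusted 0.124), and days 16 and 19 overlapped (p = 0.3, adjusted 0.332).

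**Figure D3:**
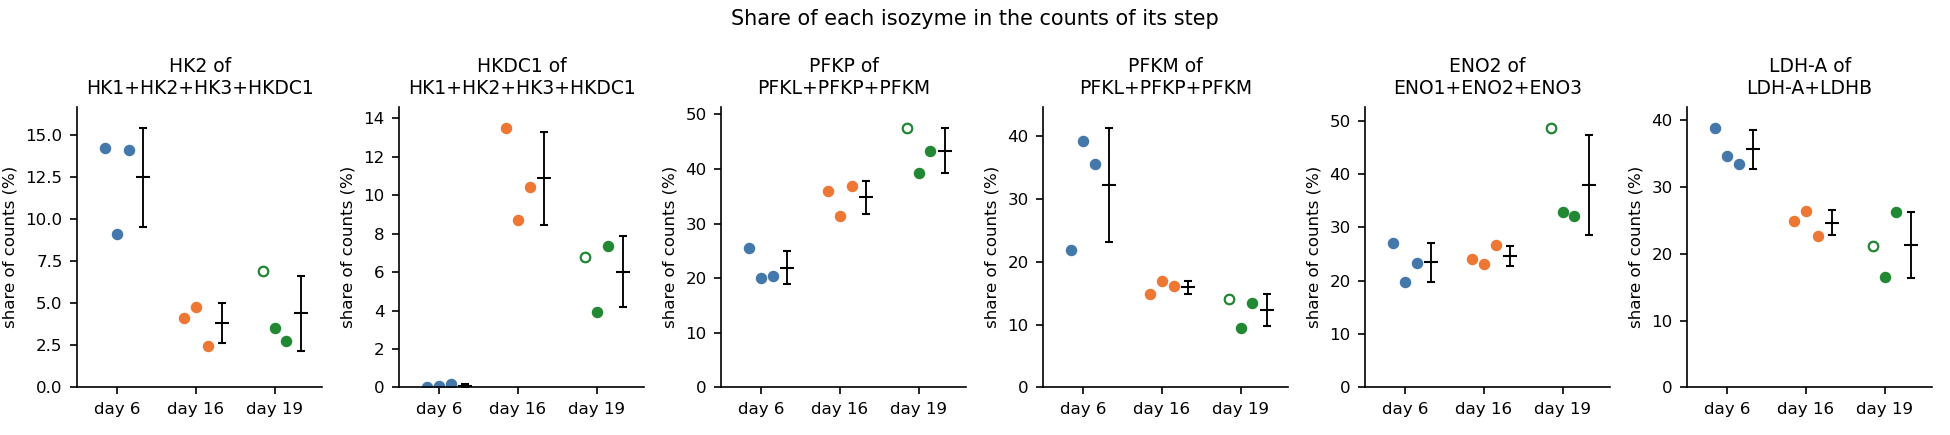
Share of the counts of an enzyme step, in percent, held by HK2, HKDC1, PFKP, PFKM, ENO2 and LDH-A in each library; points are libraries in the order of their replicate number, open circles mark day 19 replicate 1, and black bars are the mean and SD of 3 libraries. The PFKP share is higher and the PFKM share lower at each later day, and the ENO2 share is above 32% only at day 19.

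The counts of the lists that follow stand against the shares of all genes called. These were 5.12% higher and 3.74% lower for day 16 against day 6, 0.516% and 0.683% for day 19 against day 16, and 12.7% and 10.2% for day 19 against day 6. Without day 19 replicate 1 they were 10.7% and 9.67%, 21.6% and 23.1%, and 27.2% and 27%.

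The remaining isozymes and steps were taken from a list of 19 genes, of which 18 were in the table and 16 tested. From day 6 to day 16, 1 rose and 2 fell; from day 16 to day 19, 0 passed in edgeR (4 at an unadjusted p under 0.05, and 1 by DESeq2); from day 6 to day 19, 2 rose and 1 fell. HKDC1 had 1, 1 and 3 counts at day 6 and 218, 152 and 205 at day 16, a fitted rise of 112-fold (log2 fold change 6.81, SE 0.44, adjusted p = 9.29e-05, edgeR). With 122, 76 and 124 counts at day 19 it stood 62.0-fold above day 6. Without day 6 replicate 3, which holds 3 of the 5 day 6 counts, these log2 fold changes were 7.47 and 6.62. PFKM fell by 1.02 to day 16 and 1.25 to day 19 on the log2 scale (adjusted p = 0.0361 and 0.00855, edgeR); the first call ended on leaving out day 6 replicate 2 or 3 or any 1 day 16 library (adjusted p up to 0.139). ALDOC, the brain-type aldolase, fell by 2.28 to day 16 (adjusted p = 0.0218, edgeR), a call that ended on leaving out day 6 replicate 1 or 3 or any 1 day 16 library (0.0592 to 0.0836). PGAM1, a phosphoglycerate mutase, rose 1.90-fold to day 19 (adjusted p = 0.0372, edgeR), a call that ended on leaving out any 1 day 6 library, day 16 replicate 1, or day 19 replicate 2 or 3 (0.0564 to 0.129); the table also holds rows described as PGAM1-like or as its pseudogene, so its value is uncertain. Without day 19 replicate 1 the count from day 16 to day 19 was 8 of 16, near the share of all genes in that fit (21.6% higher and 23.1% lower).

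GAPDH, TPI1 and PKM, which act between ALDOA and LDH-A, did not pass in edgeR over all libraries. In day order, GAPDH, which makes the first high-energy phosphate, had means of 842 ± 96.6, 883 ± 207 and 1523 ± 562 CPM (SD, n = 3 each). TPI1, the triose phosphate isomerase, had 168 ± 2.52, 251 ± 59.3 and 342 ± 161 CPM, and PKM, the pyruvate kinase, had 413 ± 35.6, 413 ± 78.4 and 569 ± 158 CPM (SD, n = 3 each). Day 19 replicate 1 was at 49.5%, 39.97% and 59.0% of the mean of replicates 2 and 3 for these 3 genes. GAPDH, often used as a reference gene, has several pseudogene rows in the table, so its value is uncertain. For day 19 against day 6 the adjusted p of GAPDH was 0.0788 in edgeR and 0.0329 in DESeq2, that of TPI1 0.0592 and 0.0234, and that of PKM 0.210 and 0.200. The TPI1 libraries of these days were separate only by a narrow margin, with day 19 higher. The lowest day 19 value was 171.1 CPM and the highest day 6 value 170.7 CPM. Of all genes 19.6% were higher without overlap in this comparison.

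Control of phosphofructokinase and the reverse pathway was read from 13 genes, 9 of them tested. From day 6, 1 rose and 2 fell by day 16 and 2 rose and 1 fell by day 19; between days 16 and 19, 0 passed in edgeR (2 unadjusted, 0 by DESeq2). That count without day 19 replicate 1 was 4 of 9, near the share of all genes (21.6% higher and 23.1% lower). PFKFB2, which makes the activator fructose 2,6-bisphosphate, fell from 142, 120 and 117 CPM to 39.2, 27.5 and 31.8 at day 16 and stood at 34.2, 10.98 and 16.2 at day 19. Its log2 fold changes from day 6 were -1.95 (SE 0.37, adjusted p = 0.0104; 0.0544 without day 16 replicate 2, edgeR) and -2.63 (SE 0.38, adjusted p = 0.00154, edgeR). FBP1, the gluconeogenic phosphatase opposite phosphofructokinase, rose 2.61-fold to day 16 and 2.86-fold to day 19 (adjusted p = 0.0467 and 0.0173, edgeR). The day 16 call of FBP1 ended on leaving out 7 of the 9 libraries in turn, all but day 6 replicate 2 and day 19 replicate 1, and the day 19 call without day 6 replicate 1 or 3 or day 19 replicate 2 (0.0584 to 0.0732). PCK2, the mitochondrial phosphoenolpyruvate carboxykinase, rose 2.75-fold to day 19 (adjusted p = 0.0202, edgeR; this ended on leaving out day 6 replicate 1 or 2 or day 19 replicate 2 or 3, up to 0.0793). PC, pyruvate carboxylase, fell by 0.85 on the log2 scale to day 16 (adjusted p = 0.0377, edgeR), a call that ended on leaving out each library except day 19 replicates 1 and 3.

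Lactate and pyruvate transport comprised 9 listed genes, 8 of them tested, with 2 higher at day 16 and 3 higher at day 19 than at day 6. Between days 16 and 19, 0 passed in edgeR (3 unadjusted, 3 by DESeq2), and without day 19 replicate 1 it was 4 of 8, beside 21.6% of all genes higher and 23.1% lower. EMB, or embigin, a membrane partner of lactate transporters, rose from 9.28, 1.96 and 4.09 CPM to 218, 132 and 104 at day 16, 29.4-fold (adjusted p = 0.00136, edgeR). At day 19 it was at 27.1, 47.4 and 17.2 CPM, still 5.94-fold above day 6 (adjusted p = 0.0117, edgeR; 0.0545 without day 6 replicate 3). Without day 6 replicate 1 the EMB change was 5.64 on the log2 scale at day 16 and 3.32 at day 19, over 1.5 times larger on the linear scale. MPC1, a subunit of the mitochondrial pyruvate carrier, rose 1.95-fold from day 6 to day 19 (adjusted p = 0.0198, edgeR; this ended on leaving out any 1 day 6 library or day 19 replicate 2 or 3, up to 0.0821). SLC16A4, an orphan relative of the lactate transporters, had 1 count over the day 6 libraries against 32 at day 16 and 37 at day 19, ratios of 33.5 (95% counting interval 5.60 to 1364) and 38.2 (6.45 to 1550). Its calls (adjusted p = 0.0267 and 0.0122, edgeR) ended on leaving out any 1 day 6 library or day 16 replicate 1 or 2 at day 16, and without day 6 replicate 1 or 3 at day 19 (up to 0.112). The lactate transporters proper, SLC16A1 and SLC16A3, did not pass, with 19.2 ± 6.27 and 20.7 ± 9.74 CPM at day 6 and 25.2 ± 11.1 and 21.0 ± 6.77 at day 19 (SD, n = 3 each).

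Pyruvate dehydrogenase feeds pyruvate into the mitochondrial cycle, and its kinases switch it off. Of the 11 genes of this list, all tested, 2 rose by day 16 and 2 by day 19 against day 6; both times these were PDK4 and PDK2. Between days 16 and 19, 0 passed in edgeR (2 unadjusted, 0 by DESeq2), and without day 19 replicate 1 it was 5 of 11, near the share of all genes (21.6% higher and 23.1% lower). PDK4 rose from 58.0, 60.5 and 79.1 CPM to 214, 390 and 180 at day 16 (3.96-fold, adjusted p = 0.0149, edgeR) and stood at 325, 151 and 131 at day 19 (3.07-fold, adjusted p = 0.0186, edgeR). The day 16 call ended on leaving out any 1 day 6 library or day 16 replicate 2 and the day 19 call without day 6 replicate 1 or 2 (0.0511 to 0.0742). PDK2 had log2 fold changes of 0.59 and 0.74 (adjusted p = 0.0459 and 0.00915, edgeR); the day 19 call held without each library and the day 16 call ended on leaving out every one but day 19 replicate 1 (up to 0.171).

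Of the 9 pentose phosphate genes, all tested, 0 passed in edgeR in any comparison (3, 2 and 4 at an unadjusted p under 0.05 for day 16 against 6, day 19 against 16 and day 19 against 6; DESeq2 called 2, 0 and 2). With day 19 replicate 1 left out the counts were 4, 3 and 5 of 9, beside 10.7% of all genes higher and 9.67% lower, 21.6% and 23.1%, and 27.2% and 27%. Of 15 glycogen and fructose genes, 13 of them tested, 2 fell by day 16 and 1 rose and 2 fell by day 19 against day 6, and 0 passed between days 16 and 19 in edgeR (2 unadjusted, 1 by DESeq2). Of all genes 3.74% were lower at day 16, and 12.7% higher and 10.2% lower at day 19. The count between days 16 and 19 without day 19 replicate 1 was 6 of 13, near the share of all genes (21.6% higher and 23.1% lower). AKR1B1 and SORD, the 2 that fell, make fructose from glucose by way of sorbitol. AKR1B1, aldose reductase, went from 274, 304 and 432 CPM to 72.5, 58.5 and 79.8 at day 16 and 60.8, 114 and 127 at day 19 (log2 fold changes -2.26 and -1.74, adjusted p = 0.00197 and 0.00378, edgeR); both calls held without each single library. SORD, sorbitol dehydrogenase, changed by -1.26 and -0.86 (adjusted p = 0.0121 and 0.0320, edgeR); the first call ended on leaving out day 6 replicate 3 or day 16 replicate 1 and the second without any 1 day 6 library or day 19 replicate 2 or 3 (0.0526 to 0.125). UGP2, which makes UDP-glucose for glycogen, rose 1.54-fold to day 19 (adjusted p = 0.0148, edgeR; 0.0628 and 0.0691 without day 6 replicates 1 and 2).

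Hypoxia-inducible factors, their regulators and other known targets formed a list of 25 genes, 24 of them tested. Against day 6, 3 rose and 1 fell by day 16 and 6 rose and 1 fell by day 19; between days 16 and 19, 0 passed in edgeR (5 unadjusted, 2 by DESeq2). All genes were called higher and lower at 5.12% and 3.74% by day 16 and at 12.7% and 10.2% by day 19. The count between days 16 and 19 without day 19 replicate 1 was 11 of 24, near the share of all genes (21.6% higher and 23.1% lower). EPAS1, the HIF-2 alpha subunit, rose from 256, 199 and 226 CPM to 1492, 1088 and 920 at day 16 (5.14-fold, adjusted p = 0.00109, edgeR) and was at 1008, 845 and 574 at day 19 (3.56-fold, adjusted p = 0.00215, edgeR). ARNT2, a dimer partner of these factors, fell by 1.26 and then stood 2.04 lower than at day 6 on the log2 scale (log2 fold change -2.04, adjusted p = 0.000148, edgeR), with 166, 138 and 131 CPM at day 6, 54.6 to 69.3 on day 16, and 31.9 to 39.8 on day 19. The calls of both genes held without each single library. ADM, the peptide adrenomedullin, rose 2.17-fold and 2.95-fold (adjusted p = 0.0226 and 0.00270, edgeR); the day 16 call ended on leaving out day 6 replicate 2 or 3 or day 16 replicate 1 or 2 (up to 0.107). NDRG1, a stress-response gene, rose 2.40-fold to day 16 (adjusted p = 0.0116, edgeR; 0.0602 and 0.0628 without day 6 replicates 2 and 3), and ANGPTL4, a lipase inhibitor, rose 2.32-fold to day 19 (adjusted p = 0.0421, edgeR), a call that ended on leaving out any 1 library except day 16 replicate 1 and day 19 replicate 1. HIF1A, the HIF-1 alpha subunit, passed in no comparison over all libraries in edgeR. It stood at 142, 132 and 135 CPM at day 6 and 231, 226 and 163 at day 16. Its day 19 libraries were far apart, with 217 CPM in replicate 1 and 60.1 and 35.1 in replicates 2 and 3. Its result without replicate 1 is not given here, so the missing call is not read as an unchanged level.

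**Figure D4:**
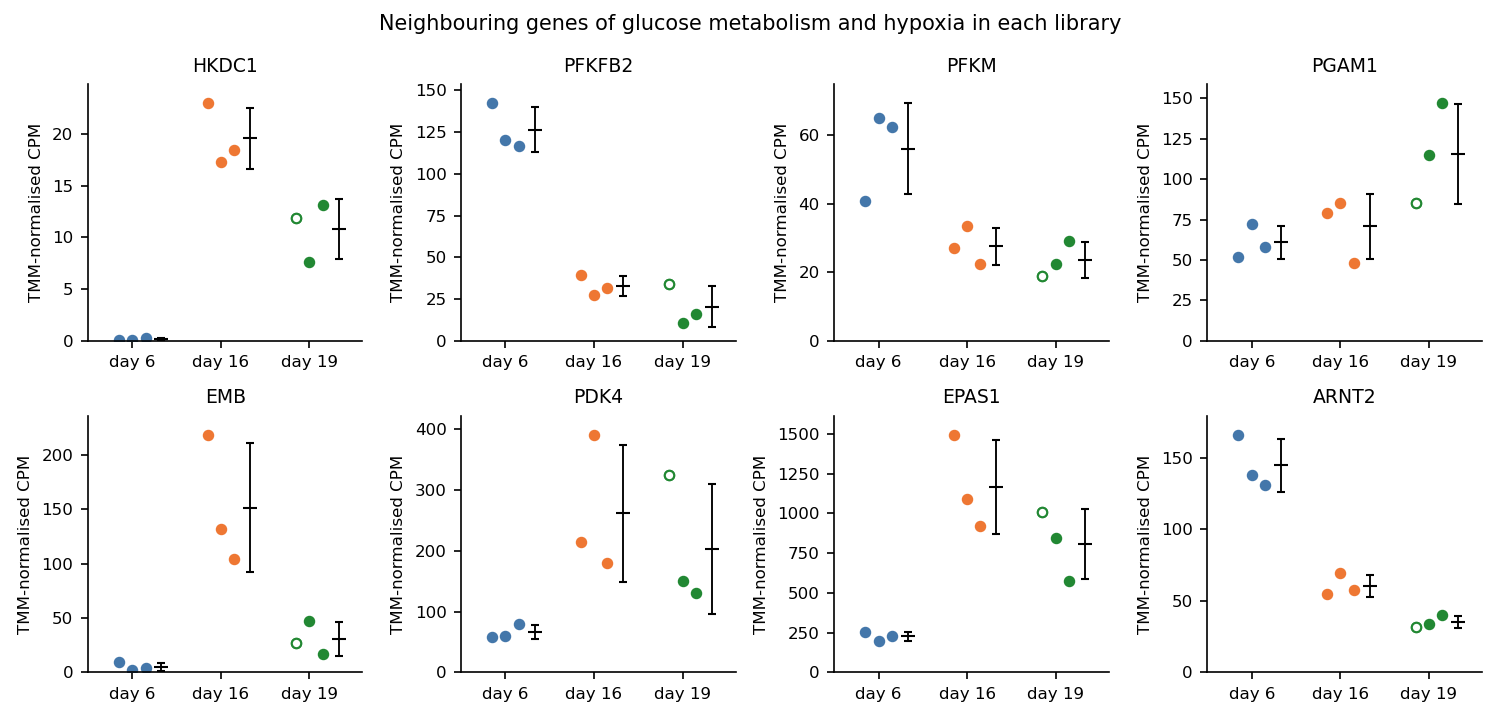
TMM-normalised CPM in each library of 8 genes of the lists around glycolysis; points are libraries in the order of their replicate number, open circles mark day 19 replicate 1, and black bars are the mean and SD of 3 libraries. HKDC1, EMB, PDK4 and EPAS1 are above their day 6 levels at both later days, and PFKFB2, PFKM and ARNT2 are below them.

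Over the 9 libraries the enzymes did not share a single profile. On log2 CPM the highest Pearson correlations between them were those of PFKP with PGK1 (0.89), ENO1 with ENO2 (0.89) and GPI with ALDOA (0.84), and the lowest was that of HK2 with ALDOA (-0.72); the points share the day and the library. Of 9785 other genes with a mean log2 CPM of at least 3, those most like the mean standardised profile of the 10 enzymes were BCCIP (r = 0.98), ELOVL1 (0.98), STARD3 (0.97), RFXANK (0.97) and NME2 (0.96). The gene most like each single enzyme was SSSCA1 for HK1 (r = 0.94), ENPP1 for HK2 (0.98), GPKOW for GPI (0.97), HEBP2 for PFKL (0.94), P2RX4 for PFKP (0.99), GEMIN8 for ALDOA (0.98), TNFRSF1A for PGK1 (0.99), AVEN for ENO1 (0.98), RUFY1 for ENO2 (0.97) and ARAF for LDH-A (0.98). With 9 libraries and 9785 candidates, such values describe these libraries only.

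Reads shared with near-identical copies bear on single enzymes. The table's rows described as like alpha and gamma enolase had 0 counts in all libraries, PGK2 had 1 count, and the 2 rows described as like LDHA had 22 over the 9 libraries. No other row was described as a copy of ALDOA, GPI, HK1, HK2, PFKL or PFKP. Copies were sought only by the words of the row descriptions. How reads that match several genes were counted is not given. Low counts in a copy therefore cannot show that an enzyme lost no reads.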

How the data were processed

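Messenger RNA was measured in 9 uterine libraries, 3 each of days 6, 16 and 19. Per the labels' protocols, poly(A) RNA was cut with RNase III and made into Ion Torrent libraries; the series design text names the Ion Proton. The authors deposited raw read counts per gene in 1 table; for the aligner, counter, build, annotation and use of strand nothing is given in the sources used here, so no coordinates are printed. The gene identifiers are the table's.

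Counts were scaled by TMM, low genes were removed with filterByExpr (16098 of 25671 kept), and a robust quasi-likelihood model with day as its only term was fitted to all genes and all 9 libraries in edgeR 4.0.16 (R 4.3.3), with Benjamini-Hochberg adjustment. The standard error is the absolute log2 change divided by the square root of F. The fit was tested on simulated data. No pair of same-day libraries agreed within sampling noise (lowest chi-square per degree of freedom 9.86). Totals of 8712751 to 11074693 counts limit precision for low genes; counting intervals cover counting error only. Named genes were the 10 enzymes, up to 4 called genes per list and comparison with the largest change, and the most correlated genes. GAPDH, TPI1, PKM, HIF1A, SLC16A1, SLC16A3 and SLC16A7 were added after their values were seen. The members and lists were chosen with earlier results of these data known. Alternatives used DESeq2 1.42.0, limma 3.58.1 (voom with sample weights), RLE scaling, no filter, only the days compared, a replicate block, and each library left out.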

Additional observations from a re-analysis of the deposited data

How the results depend on the processing

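The enzymes called numbered 3 (day 16 against day 6), 1 (day 19 against day 16) and 6 (day 19 against day 6); leaving out each library in turn gave 0 to 5, 0 to 5 and 3 to 8. Over all genes the counts of 1427, 193 and 3684 ranged from 664 to 3345, 0 to 7331 and 1928 to 8891. The highest of each came without day 19 replicate 1. The lowest enzyme counts came without day 6 replicate 1 or day 16 replicate 2 (day 16 against day 6), without day 6 replicate 3, any 1 day 16 library or day 19 replicate 3 (day 19 against day 16), and without day 6 replicate 3 (day 19 against day 6). A range that begins at 0 has unadjusted calls: for the enzymes 4 at day 16 against day 6 and 2 to 3 at day 19 against day 16, and over all genes 2534 to 3347 (edgeR).

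For day 16 against day 6, DESeq2 called 2235 genes, a fit to only those days 3092, voom with sample weights 3811 genes and 5 enzymes, and DESeq2 without day 19 replicate 1, chosen after the data were seen, 3794 genes and 5 enzymes. For day 19 against day 16 these gave 1680 genes and 2 enzymes, 0 and 0 (2726 genes and 2 enzymes unadjusted), 7354 and 5, and 7496 and 5. For day 19 against day 6 they differed by over 1.5 times in the fit to only those days (2357 genes), voom (9433) and the added DESeq2 fit (8945). Voom gave day 19 replicate 1 a weight of 0.091. With the replicate number as a block, day 19 against day 16 gave 0 genes and 0 enzymes (3572 and 3 unadjusted). The numbers showed no pairing of the libraries: deviations of same-numbered libraries from their day means correlated between -0.164 and 0.153, and 2 of 9 libraries correlated best with one of their own number. Libraries of different numbers reached 0.200. With 3 libraries a day, this check cannot establish that the numbers carry no pairing. RLE scaling and the unfiltered fit kept all 3 enzyme counts, and the median log2 change over all genes lay between -0.038 and 0.030 in every setting.

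The lists around glycolysis moved likewise when each library was left out. For day 16 against day 6, day 19 against day 16 and day 19 against day 6, in that order, the called genes numbered 1 to 4, 0 to 8 and 2 to 9 for the other glycolytic genes, 0 to 5, 0 to 4 and 1 to 5 for phosphofructokinase control, 1 to 3, 0 to 4 and 0 to 5 for lactate and pyruvate transport, and 0 to 4, 0 to 5 and 1 to 7 for pyruvate dehydrogenase. They numbered 0 to 4, 0 to 3 and 0 to 5 for the pentose phosphate pathway, 1 to 5, 0 to 6 and 1 to 7 for glycogen and fructose, and 2 to 9, 0 to 11 and 3 to 13 for hypoxia.

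Signs turned only where the difference was small and uncalled. For day 16 against day 6, leaving out each library gave log2 differences of -0.066 to 0.0893 for HK1 (below 0 without day 6 replicate 3, and -0.055 without day 16 replicate 2), -0.064 to 0.256 for PFKL (below 0 without day 16 replicate 2, and -0.034 without day 6 replicate 2) and -0.111 to 0.279 for ENO1 (below 0 without day 16 replicate 2). For day 19 against day 16 they were -0.0091 to 0.137 for HK1 (below 0 without day 16 replicate 1), -0.228 to 0.479 for HK2 (below 0 without day 19 replicate 1, and -0.075 without day 16 replicate 3), -0.217 to 0.352 for PFKL (below 0 without day 19 replicate 2, and -0.120 without day 16 replicate 3) and -0.088 to 0.376 for ALDOA (below 0 without day 19 replicate 3, and -0.003 without day 16 replicate 3). HK2 was also at -0.188 in voom and -0.243 in the added DESeq2 fit. For day 19 against day 6 the ranges were -0.0080 to 0.151 for HK1 (below 0 without day 6 replicate 3) and -0.140 to 0.429 for PFKL (below 0 without day 19 replicate 2). The cause of these changes was not tested.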
